A study of Mus musculus with 11 samples.

Results

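The deposited HTT peak lists carry 1 of 2 prefixes in their names, DB or JP, and the comparison described here sets the 3 DB lists against the 4 JP lists. They were chosen by that prefix alone, and make up 7 of the 11 samples of the series. The other 4 samples are inputs, made without antibody, and were not analysed here. The sources used here do not say what the prefixes stand for. Both prefixes hold striatum from male B6 mice bred by crossing heterozygous knock-in mice, with an expanded CAG repeat in 1 Htt allele (Q111/+), to wild-type mice, and killed at 4 months of age. The DB lists are Q111/+ replicates 1 and 2 and WT replicate 1, while Q111/+ replicates 3 and 4 carry JP, as do WT replicates 2 and 3. WT animals were littermates. Replicate numbers here are those of the sample titles, and the list names count differently: the numbers pQ1, pQ2 and Wt2 occur under both prefixes, and the DB list named Wt2 is WT replicate 1 by its title. The tissue was fixed with formaldehyde, its chromatin was cut with micrococcal nuclease and then sonicated, and 1 lot of 1 HTT antibody is named for all 7 samples. The prefixes are not balanced for genotype, since 2 of 3 DB and 2 of 4 JP lists are Q111/+. Whether each sample is a separate animal is not said in the labels. The p-values therefore refer to the spread among these 7 samples, part or all of which may be technical.

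Huntingtin (HTT) is a large scaffold protein found in the cytoplasm and the nucleus, with no DNA-binding domain of a classical transcription factor. An expanded glutamine tract in it causes Huntington's disease, in which the medium spiny neurons of the striatum degenerate early. ChIP-seq of such a protein reads DNA that is bound directly or through partners, together with DNA that is recovered without binding. Mouse autosomes have their centromere at one end, which is the low-coordinate end of the mm9 assembly used by the files. Chromosome 11 is known as one of the gene-dense mouse chromosomes.

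The lists held between 87096 and 488325 autosomal peaks, and their lengths overlapped between the prefixes. DB lists held 109042, 87096 and 488325 peaks (in the order Q111/+ replicates 1 and 2 and WT replicate 1), and JP lists held 102503, 107430, 241707 and 133901 (Q111/+ replicates 3, 4, then WT replicates 2, 3). The same order is used for all values given below. Sequencing depth is unknown. To compare lists of 1 length, each list was cut to its top 87096 autosomal peaks by −log10 p. The lists so cut, called size-matched here, reached down to a −log10 p of 4.83, 3.00 and 11.6 in the DB lists and 3.18, 3.51, 6.98 and 5.65 in the JP lists. Median peak width was 184, 179 and 210 bp in the full DB lists and 207, 193, 193 and 173 bp in the full JP lists, again with overlap.

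The medians of the deposited fold and −log10 p were higher in the DB lists, differences that did not pass a threshold of 0.05 after adjustment. The authors' fold enrichment over local background had a median of 3.38, 3.37 and 3.19 in the DB lists and of 2.78, 2.89, 2.99 and 3.12 in the JP lists, so that every DB list lay above every JP list. The difference was 0.37 (two-sided exact permutation test over 35 relabellings, p = 0.0571). The median −log10 p was 8.13, 8.14 and 6.92 in the DB lists and 5.49, 5.43, 5.95 and 5.78 in the JP lists, also without overlap (exact permutation p = 0.0286, the smallest that 3 lists against 4 allow). Adjusted by Benjamini-Hochberg over the 8 whole-list measures compared, both had an exact permutation p of 0.114. The deposited p-values rest on fragments multiplied by a scale that differs between lists, 5.21, 5.27 and 6.16 in DB and 4.47, 4.38, 5.29 and 4.20 in JP, and a larger scale gives a larger −log10 p. With the fragments unscaled, 9531, 6840 and 31484 peaks of the DB lists and 4570, 4798, 10370 and 17811 of the JP lists had a Poisson p of at most 0.001, and the prefixes overlapped. The part of the scale in the fold and p differences was not tested. The relabellings that keep the genotypes apart number 18, with a smallest possible p of 0.0556.

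Chromosome 11 differed most between the prefixes. It held 5.43%, 5.68% and 5.73% of the size-matched peaks in the DB lists and 3.62%, 4.05%, 4.03% and 4.23% in the JP lists. The mean was 5.62 ± 0.160% (SD, n = 3) against 3.98 ± 0.260% (SD, n = 4), a ratio of 1.41. Every DB list thus gave chromosome 11 a larger share than any JP list, and the difference was 1.72 percentage points within Q111/+ and 1.60 within WT. Of the 19 autosomes, 4 (21.1%) were higher in every DB than in every JP list and 5 (26.3%) were lower. Besides chromosome 11 these were chromosome 9, with 5.67 ± 0.167% against 4.69 ± 0.207%, chromosome 2, with 7.44 ± 0.328% against 6.39 ± 0.102%, and chromosome 19, with 2.71 ± 0.0766% against 2.55 ± 0.0742% (SD, n = 3 and n = 4).

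**Figure D1:**
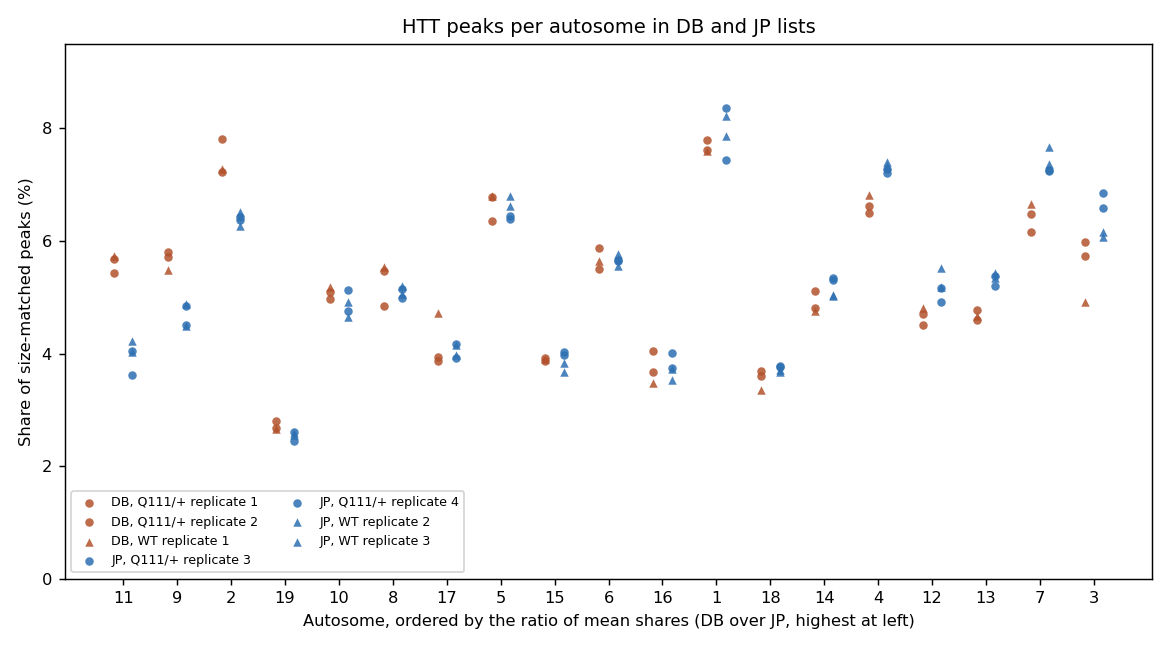
Share of the 87096 size-matched peaks of each list (vertical axis, percent) on each autosome (horizontal axis, ordered by the ratio of the mean shares). Each point is 1 list, circles are Q111/+ and triangles WT, and DB is drawn in brown and JP in blue; chromosome 11 at the left holds 5.43% to 5.73% in DB and 3.62% to 4.23% in JP lists.

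The autosomes with a larger share in the JP lists were chromosomes 3, 4, 7, 12 and 13. Chromosome 3 had the lowest ratio, with 5.74%, 5.98% and 4.92% of the DB peaks and 6.86%, 6.58%, 6.16% and 6.08% of the JP peaks. The nearest lists across the prefixes were Q111/+ replicate 2 and WT replicate 3. Chromosome 7 held 6.43 ± 0.254% in DB and 7.38 ± 0.196% in JP lists, chromosome 13 held 4.68 ± 0.0969% and 5.34 ± 0.0987%, and chromosome 12 held 4.67 ± 0.157% and 5.20 ± 0.243% (SD, n = 3 and n = 4). Of the 9 autosomes without overlap, 8 had an exact permutation p of 0.0286 and chromosome 12 had 0.0571. Adjusted over the 19 autosomes, the lowest exact permutation p was 0.0679, so 0 passed a threshold of 0.05. When each genotype was read alone, 4 autosomes were higher in DB and 7 in JP in both genotypes, chromosomes 14 and 18 being added. Between genotypes, over all 7 lists, 0 autosomes were without overlap. The difference on chromosome 3 had exact permutation p-values of 0.0857 when peaks were ranked by fold, 0.0857 in the full lists and 0.257 with 10000 peaks per list. Other autosomes varied too. With 10000 peaks the exact permutation p was 0.0857 on chromosome 13 and 0.0571 on chromosome 9. With the limit of 0.001 on the unscaled p it was 0.2 and 0.0571. On chromosome 19 it was 0.0571 with 30000 peaks and 0.0857 without the dense windows described below. On chromosome 12 the difference of -0.52 percentage points was -0.35 with 10000 peaks and -0.08 with that limit. With 30000 peaks it was -0.51 (exact permutation p = 0.0286). Chromosomes 2, 7 and 11 had an exact permutation p of 0.0286 in each of these settings.

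Along the autosomes, DB peaks lay farther from the centromeric end than JP peaks. With each autosome measured from 0 at its low-coordinate end to 100% at the end of its last peak, the mean position of the size-matched peaks was 53.1%, 53.4% and 54.2% in the DB lists and 48.0%, 49.1%, 48.9% and 50.1% in the JP lists. The difference of 4.54 percentage points separated all DB from all JP lists (exact permutation p = 0.0286, and 0.114 adjusted over 8 measures). In the full lists it was 4.35 with an exact permutation p of 0.0571. This measure was chosen after the data were seen.

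Each autosome was cut into 10 bins of equal length. Bins 1 to 3 held more of the JP peaks and bins 8 to 10 more of the DB peaks, without overlap between the prefixes in any of these 6 bins. In bin 1 the DB lists had 7.05%, 6.98% and 6.71% of their peaks and the JP lists 9.97%, 9.47%, 9.63% and 9.01%. In bin 10 the DB lists had 12.3%, 12.1% and 13.6% and the JP lists 9.46%, 10.2%, 10.4% and 11.4%. Bins 4 to 7 overlapped between the prefixes. For bin 10 the exact permutation p was 0.0571, and for the other 5 without overlap it was 0.0286, or 0.0571 adjusted over the 10 bins.

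**Figure D2:**
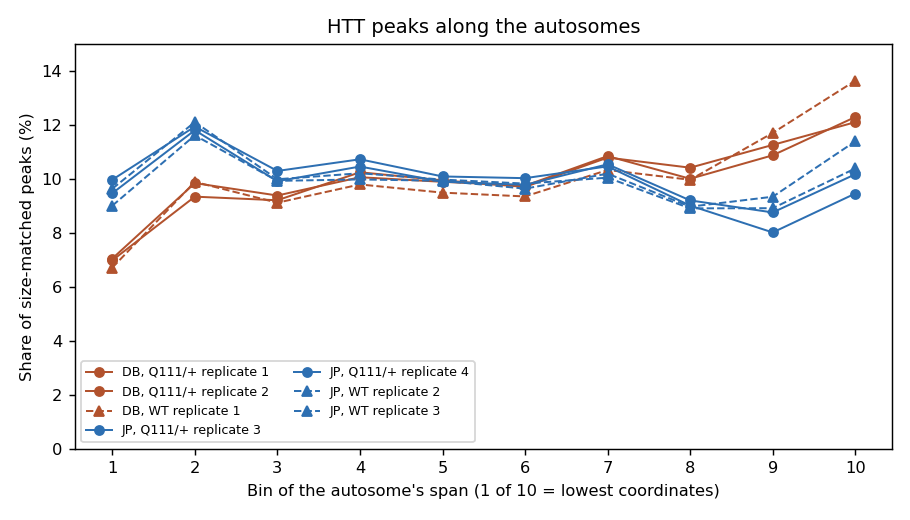
Share of size-matched peaks (vertical axis, percent) in each of 10 bins along the span of the autosomes, summed over all 19 (horizontal axis, bin 1 at the low-coordinate end). Each line is 1 list, solid for Q111/+ and dashed for WT; the DB lines start at 6.71% to 7.05% in bin 1 and end at 12.1% to 13.6% in bin 10, and the JP lines start at 9.01% to 9.97% and end at 9.46% to 11.4%.

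The shift along the chromosome was seen on most autosomes taken one by one. Mean position was farther out in every DB list on 15 of 19 autosomes (78.9%). On 14 of them the exact permutation p was 0.0286, the smallest possible, or 0.0388 adjusted over the 19. That adjusted value is under 0.05 because 14 of the 19 autosomes share the smallest p. All 19 tests rest on the same lists and relabellings, so they are not independent of each other. Mean position was chosen as a measure after the data were seen. The largest shifts were on chromosome 7, with a mean position of 55.2% in DB and 43.4% in JP lists, chromosome 15, with 58.4% and 48.3%, and chromosome 11, with 54.9% and 45.6%. Chromosome 15 held about the same share of peaks in both prefixes, 3.90% and 3.88%. Chromosome 16 alone went the other way without overlap (5.26% of autosomes), with 47.5% in DB and 49.6% in JP lists (exact permutation p = 0.0571, adjusted p = 0.0679). Chromosomes 14, 17 and 19 overlapped.

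At the scale of 1 Mb the prefixes differed in many windows on every autosome. Numbers of size-matched peaks in 2416 windows, as log2 of the number plus 0.5, were fitted with limma, with terms for prefix and genotype. The fit shares its estimate of spread over windows. Its p-values can therefore fall far below 0.0286, the smallest exact permutation p for these 7 lists, though they rest on the same lists. At a Benjamini-Hochberg adjusted limma p under 0.05, 730 windows (30.2%) held more peaks in DB and 835 (34.6%) more in JP lists. The same fit called 154 windows (6.37%) between genotypes, 128 of them higher in WT. The prefix difference was 2-fold or more in 346 of the DB and 338 of the JP windows. Its median absolute size over all windows was 0.69 on the log2 scale, and that of the genotype difference was 0.26. In 574 of the DB and 639 of the JP windows the lists of the prefixes did not overlap. The calls depend on how many peaks are kept: with 30000 peaks per list 566 and 423 of 2405 windows were called higher in DB and JP, with 10000 peaks 18 and 57 of 347, and with the limit of 0.001 on the unscaled p 41 and 64 of 997.

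**Figure D3:**
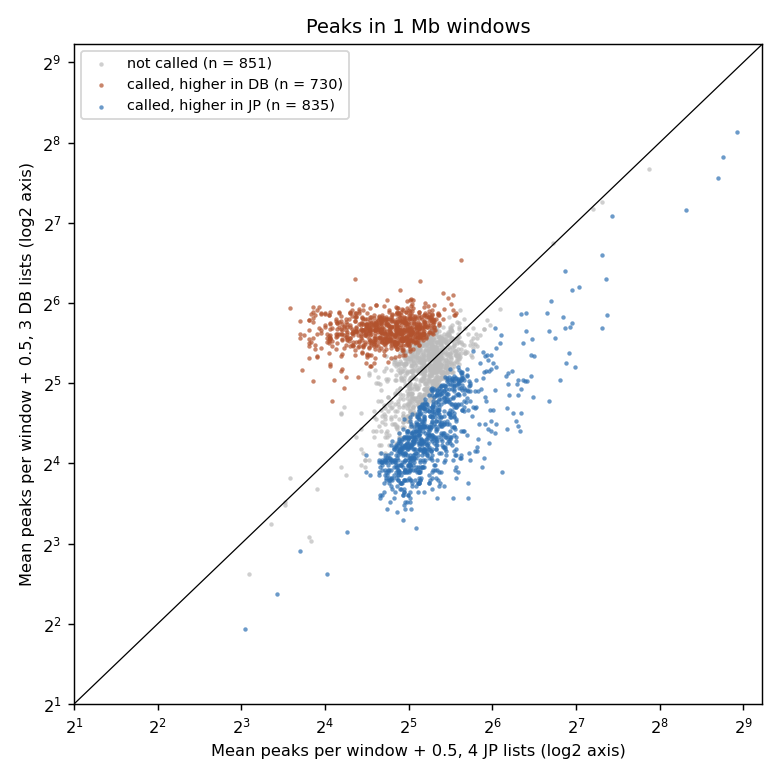
Mean number of peaks plus 0.5 in each of 2416 windows of 1 Mb in the 4 JP lists (horizontal axis) and the 3 DB lists (vertical axis), both on log2 axes. Brown points are the 730 windows called higher in DB, blue points the 835 called higher in JP and grey points the 851 not called; the diagonal marks equal means.

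The windows called in either direction were spread over all 19 autosomes in unequal shares. Chromosome 11 had 64 windows higher in DB and 25 higher in JP lists, of 119. Chromosome 9 had 58 and 28 of 121, and chromosome 3 had 21 and 71 of 157. By position, bin 1 of the autosomes had 20 windows higher in DB and 116 higher in JP of 190, and bin 10 had 136 and 44 of 255. Called windows lay next to each other. The sign of the difference was the same in 78.8% of 2394 adjacent pairs, and 74.1% of the DB and 73.4% of the JP windows lay in runs of at least 3 called the same way. Neighbouring windows are thus not independent of each other.

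The longest run, 20 Mb at 123000001 to 143000000 on chromosome 4 (mm9), held more peaks in DB. Its size-matched peaks numbered 899, 956 and 1186 in the DB lists and 222, 410, 456 and 618 in the JP lists. Every DB list had more peaks there than any JP list. Runs were built from windows called in these same lists, so such separation in a run is partly built in. Next came 17 Mb at 56000001 to 73000000 on chromosome 9, with 840, 893 and 836 peaks against 278, 401, 369 and 466, and 15 Mb at 74000001 to 89000000 on chromosome 11, with 702, 743 and 763 against 236, 312, 322 and 410. In the JP direction the longest run was 14 Mb at 40000001 to 54000000 on chromosome 15, with 247, 314 and 205 peaks in DB and 538, 490, 441 and 397 in JP lists. It was followed by 13 Mb at 15000001 to 28000000 on chromosome 4, with 256, 274 and 209 against 558, 468, 468 and 404. Chromosome 4 therefore held long runs in both directions, the JP run nearer the centromeric end. The third, 12 Mb at 5000001 to 17000000 on chromosome 7, also lay near that end, and had 351, 305 and 351 peaks in DB and 859, 794, 881 and 752 in JP lists.

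Among single windows with many peaks, 8 in each direction were followed list by list. The window at 97000001 to 98000000 on chromosome 11 held 55, 67 and 61 peaks in the DB lists and 5, 12, 12 and 17 in the JP lists. Its log2 difference was 2.55 ± 0.30 (SE, limma adjusted p = 7.8e-08), with a ratio of means of 5.30. That was the largest ratio of means among the 16. A second window of chromosome 11, at 117000001 to 118000000, had 41, 37 and 53 peaks against 2, 9, 14 and 29. The window with the largest log2 difference, 2.56 ± 0.36 (SE, limma adjusted p = 1.4e-06), was at 30000001 to 31000000 on chromosome 2, with 36, 49 and 79 peaks against 2, 11, 19 and 22. Of the 16 windows, 5 also differed between genotypes in the same fit. This one, that at 117000001 on chromosome 11, and those at 5000001 on chromosome 19 and 80000001 on chromosome 10 were higher in WT than in Q111/+ lists (limma adjusted p = 0.016, 0.028, 0.037 and 0.020), and that at 45000001 on chromosome 15 was lower in WT (limma adjusted p = 0.0495).

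Other windows higher in DB lay on chromosomes 5, 10, 17 and 19. At 5000001 to 6000000 on chromosome 19 the DB lists held 74, 74 and 86 peaks and the JP lists 9, 16, 28 and 27. A second one on chromosome 19, at 46000001 to 47000000, had 51, 69 and 64 against 11, 12, 10 and 26. On chromosome 17, at 28000001 to 29000000, the numbers were 52, 48 and 64 against 4, 18, 14 and 18. The remaining windows were at 125000001 to 126000000 on chromosome 5, with 37, 41 and 57 against 1, 17, 13 and 24, and at 80000001 to 81000000 on chromosome 10, with 37, 35 and 69 against 5, 9, 14 and 22. In 7 of these 8 windows Q111/+ replicate 3 had the fewest peaks.

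In the JP direction, the window at 66000001 to 67000000 on chromosome 13 held 19, 13 and 11 peaks in the DB lists and 72, 55, 81 and 68 in the JP lists, a log2 difference of -2.26 ± 0.22 (SE, limma adjusted p = 2.8e-09). A second window of that chromosome, at 61000001 to 62000000, had 26, 13 and 10 against 76, 52, 61 and 49. At 113000001 to 114000000 on chromosome 4 the numbers were 13, 13 and 8 against 69, 45, 51 and 43. The prefixes stood clear of each other in these windows, although at 61000001 on chromosome 13 the DB lists differed by more than 2-fold among themselves. Near the end of chromosome 12, at 116000001 to 117000000, the DB lists held 25, 16 and 21 peaks and the JP lists 87, 72, 81 and 80, and this window had the lowest p of the 16 (limma adjusted p = 1.6e-09). It ran against the general shift of JP peaks toward the centromeric end.

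The other windows higher in JP lay on chromosomes 6, 15, 17 and 19. Chromosome 19 had one at 13000001 to 14000000, with 10, 16 and 13 peaks in DB and 55, 57, 58 and 38 in JP lists. Chromosome 17 had one at 19000001 to 20000000, with 11, 9 and 14 against 67, 43, 42 and 31. On chromosome 6, at 132000001 to 133000000, the numbers were 11, 10 and 5 against 32, 29, 43 and 30, and on chromosome 15, at 45000001 to 46000000, they were 10, 15 and 3 against 38, 33, 27 and 22. None of the 16 windows overlapped between the prefixes, which was part of the rule that chose them. All 16 kept their direction and an adjusted limma p under 0.05 in the full lists and with peaks ranked by fold. The same held without the genotype term and without any 1 of the 7 lists. The 16 were chosen from these same lists, so this is partly built in. They were not followed with fewer peaks per list or with the limit on the unscaled p, settings in which fewer windows were called.

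Windows called from one genotype alone were read in the other. Between the 2 DB and the 2 JP lists of Q111/+, 375 windows were higher in DB by 2-fold or more without overlap, and 313 were higher in JP. In the WT lists, which had no part in that choice, WT replicate 1 (DB) lay above both JP lists in 374 of the 375, and below both in 308 of the 313 (98.4%). Over all windows this held for 38.2% and 49.8%. The opposite order without overlap was seen in 0 windows of either set. WT has 1 DB list, so no test was run for it. The windows of a list are not independent of each other. These counts therefore describe 1 DB list against 2 JP lists, and are not separate observations.

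The DB lists ranked the windows in much the same order, the JP lists less closely so, and lists of different prefixes in unlike or opposite orders. Spearman correlations of the peak numbers over the 2416 windows were 0.784 to 0.819 for the 3 DB pairs and 0.326 to 0.654 for the 6 JP pairs. For the 12 pairs of different prefix they ran from -0.491 to 0.309. WT replicate 3 was the JP list most like the DB lists and Q111/+ replicate 3 the least like them. At the level of single positions the prefixes were not set apart in this way. The Jaccard index, which divides the base pairs that 2 lists share by those covered in either, averaged 4.09% for pairs of 1 prefix and 3.66% for pairs of different prefix (one-sided exact permutation p = 0.114). DB pairs, at 2.87% to 3.77%, lay within the range of the mixed pairs, 2.63% to 5.64%, and JP pairs ran from 3.68% to 6.49%. The corresponding difference between genotypes was 0.23 percentage points (one-sided exact permutation p = 0.171).

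**Figure D4:**
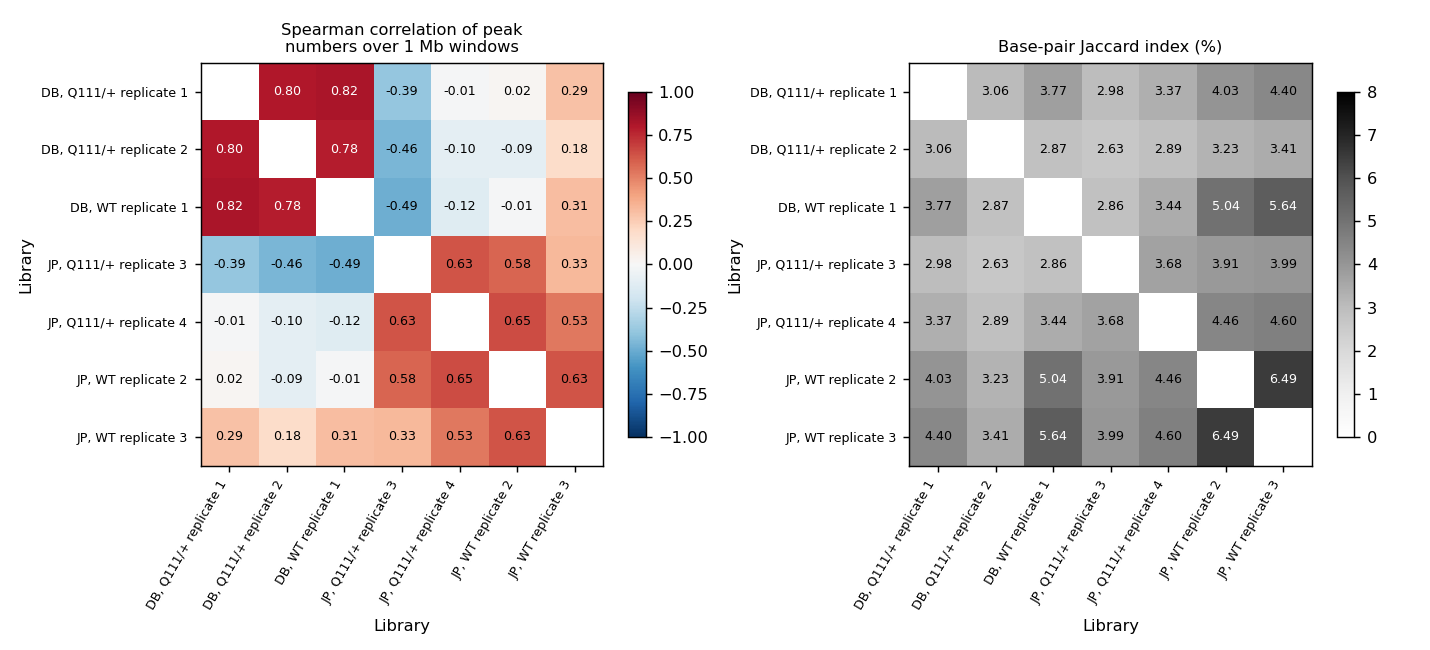
Left, Spearman correlation of peak numbers over 2416 windows of 1 Mb for each pair of lists, from size-matched peaks; right, the base-pair Jaccard index of the same pairs in percent. Rows and columns are the 7 lists in the same order; the 3 DB lists form a block of correlations from 0.78 to 0.82 at the left, and no such block is seen at the right.

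A window's local background moved with the direction of its call. MACS compares each peak with a background that is the highest of a genome-wide level and levels around the peak, and that background was recovered from the deposited fold and p-value. The share of peaks whose background was more than 2% above the most frequent background of their list was 41.5%, 52.2% and 38.0% in the DB lists and 23.1%, 27.3%, 25.5% and 36.5% in the JP lists, without overlap (exact permutation p = 0.0571). In windows higher in DB this share was 41.1% to 68.6% over the 7 lists, and in windows higher in JP it was 15.9% to 32.4%. It was higher in the first class than in the second in all 7 lists, DB and JP alike. The pattern of this share over the windows was much the same whatever the prefix, with Spearman correlations of 0.778 to 0.912 for the mixed pairs.

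Besides the share of peaks with raised background, the prefixes differed in how peak numbers went with that share over the windows. Over the 2416 windows, the number of peaks and the share with raised background had Spearman correlations of 0.675, 0.732 and 0.802 in the DB lists. In the JP lists the correlations were -0.598, -0.360, -0.359 and -0.0744. The DB lists thus held more peaks where local background was often raised, and the JP lists fewer, with WT replicate 3 close to 0. The numbers are of size-matched peaks, and the shares are of all autosomal peaks of each list, which include them. Size-matched peaks were 17.8% of the list of WT replicate 1 and 36.0% of that of WT replicate 2. The measures thus share part or all of their peaks, and the background is known at peaks alone. The part of local background in the window differences was not tested.

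**Figure D5:**
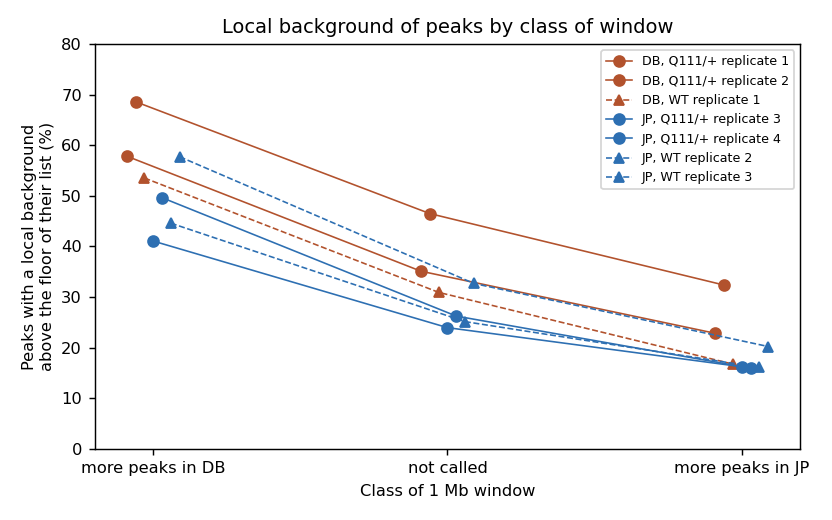
Share of all autosomal peaks of each list whose local background was more than 2% above the most frequent background of that list (vertical axis, percent), in windows called higher in DB, not called and called higher in JP (horizontal axis). Each line is 1 list, offset slightly sideways; all 7 lines fall from left to right, from 41.1% to 68.6% down to 15.9% to 32.4%.

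Regions called in all lists of one prefix and none of the other were few. Overlapping size-matched peaks merged into 531706 autosomal regions, of which 480363 came from 1 list and 749 from all 7. In all 3 DB and no JP list 174 regions were called, which is 2.96% of the 5882 regions called in exactly 3 lists. In all 4 JP and no DB list 143 were called, 6.64% of the 2154 called in exactly 4. For comparison, 407 (6.92%) of the regions called in exactly 3 lists were those of the 3 WT lists. An even split over the 35 ways to choose 3 of 7 lists, or 4 of 7, would give each choice 1 in 35. The DB share was close to that, and the JP and WT shares were higher. Of the 174 DB regions 136 had no peak in any full JP list either, and of the 143 JP regions 64 had none in any full DB list. Another 71 of the JP regions had a peak in 1 full DB list and 8 in 2. The full list of WT replicate 1 (DB) covers 122 Mb, and no full JP list covers more than 54.8 Mb. Absence from the full DB lists is thus harder to meet, and the counts of 136 and 64 are not on equal terms. These counts depend on the number of lists required. With 2 DB lists required, the DB count was 2118, 2496 and 2021 without Q111/+ replicate 1, Q111/+ replicate 2 and WT replicate 1, and the JP count was then 255, 234 and 286. With 3 JP lists required, the JP count was 476, 436, 369 and 393 without Q111/+ replicates 3 and 4 and WT replicates 2 and 3.

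The strongest DB region was also among the strongest peaks of the DB lists anywhere on the autosomes. It spanned 1026 bp at 97176879 to 97177904 on chromosome 11 (mm9), inside the window named first above. The authors' fold enrichment there was 30.2, 24.1 and 42.3, and the −log10 p was 314, 227 and 496. This fold was the highest of all autosomal peaks in both Q111/+ lists of the DB prefix, and the second highest in WT replicate 1, whose highest was 43.6. No full JP list held a peak in it, and the highest autosomal fold of the JP lists anywhere was 10.5, 12.8, 14.3 and 12.8. The fold values of this region were not tested between lists. Fragments could not be recovered at such a p, and no mm9 gene annotation was used here, so its gene is not named.

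Other DB regions had strong peaks too. A second region on chromosome 11, at 68908063 to 68908419, had folds of 9.15, 6.67 and 11.4. On chromosome 7, the region at 133630309 to 133630952 had folds of 12.1, 8.72 and 11.2, and the one at 134918723 to 134920381 had 7.47, 11.4 and 10.1. In the region at 27466436 to 27467781 on chromosome 15 the folds were 7.92, 4.95 and 10.9. The rest of the 8 were at 116159422 to 116160224 on chromosome 8, resting on 11, 14 and 15 fragments, at 11269378 to 11269741 on chromosome 2, on 9, 13 and 11 fragments, and at 91962891 to 91964423 on chromosome 16, on 9, 11 and 11 fragments. None of the 8 had a peak in any full JP list. All of them rank high by −log10 p because that was the rule that chose them.

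Regions of the JP lists had lower folds. The one ranked highest, at 62960676 to 62961178 on chromosome 3, had folds of 4.30, 5.21, 4.65 and 3.97, resting on 19, 20, 13 and 13 fragments. WT replicate 1 of the DB prefix had a weak peak in it in its full list, with a fold of 2.12. Among all JP regions the highest mean fold was 5.26, and 2 of 143 exceeded 5, against 29 of 174 DB regions and a highest of 32.2. The medians of the mean fold were closer, 3.81 and 4.08. Scale and median fold differ between the lists, as given above, and the folds of regions were not tested between prefixes. Median width was 683 bp for JP and 552 bp for DB regions, which merge peaks of 4 and of 3 lists.

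JP regions were gathered in a few places. Chromosome 5 held 32 of the 143 (22.4%) and 11.7% of all regions called in exactly 4 lists, and chromosome 4 held 24 (16.8%) and 14.2%, so that the share of chromosome 4 was near that of comparable regions. Of the 174 DB regions 18 (10.3%) lay on chromosome 5, as did 10.3% of the regions called in exactly 3 lists, and 8 (4.60%) on chromosome 4, against 10.4%. On chromosome 5, 12 and 13 lay in the neighbouring windows at 94000001 to 95000000 and 95000001 to 96000000, and on chromosome 4, 7 and 10 lay at 145000001 to 146000000 and 146000001 to 147000000. These windows are among 23 dense ones, with at least 20 regions called in 4 or more lists. Dense windows held 68 JP regions (47.6%) and 9 DB regions (5.17%), where they held 26.6% of all regions called in exactly 4 lists and 16.3% of those called in exactly 3. A JP region, called in 4 lists, counts toward the limit that defines these windows, and a DB region, called in 3, cannot. The contrast is thus partly built into the rule. Without the dense windows 75 JP regions were left. Of the 8 JP regions ranked highest, 6 lay in dense windows, among them 95077251 to 95077942 on chromosome 5, with folds of 3.85, 4.00, 5.85 and 5.50, and 3246867 to 3247482 on chromosome 16, with 4.27, 2.97, 4.04 and 3.32.

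The remaining JP regions of the 8 were 4 on chromosome 4, starting at 145330408, 145612127, 146363667 and 146508970, and 1 on chromosome 12. The region on chromosome 12, at 111600747 to 111600957, lay outside the dense windows and inside a window with more peaks in DB. It rested on 12, 11, 17 and 17 fragments, with folds of 3.04, 2.89, 5.35 and 4.52, and had no peak in a full DB list. DB regions were spread more evenly, with at most 3 in any 1 window. By class of window, 60.9% of the DB regions lay in windows higher in DB and 13.2% in windows higher in JP. Of the JP regions 80.4% lay in windows higher in JP and 4.90% in windows higher in DB. Regions called in exactly 3 lists had 23.9% in windows higher in DB and 44.9% in windows higher in JP, and those called in exactly 4 had 18.2% and 51.5%. The peaks of these regions also count in the windows, so the measures share their data.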

How the data were processed

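Per the submitters' processing notes, Bowtie2 2.2.5, MACS2 2.1 and mm9 were used, with no role or order given. The list names tell of paired reads and a MACS p of 0.001, with 1 list per sample. Use of input as control is not stated in these sources. The deposited narrowPeak lists hold the authors' fold (ratio to local background) and the authors' −log10 of the p-value and q-value per peak. The authors' score column was not analysed further. Fold and −log10 p belong to a peak within its list. They were used to rank and filter peaks there. Their medians were also compared between prefixes, and folds of regions and the highest folds of lists were set side by side without a test. Depth is unknown, since the lists hold no read totals, and no interval for counting error can be given.

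Peaks on the 19 autosomes were used, 1-based in mm9. Size-matched peaks were the top 87096 of each list by −log10 p (ties by fold, then by seed 11). Regions merged peaks overlapping by at least 1 bp. Windows of 1 Mb with a mean of at least 5 peaks were fitted with limma (trend, prefix plus genotype), and p-values were adjusted over all 2416 of 2417 windows with a peak. Single values had exact permutation tests. Fragments and background at summits with a −log10 p up to 60 were recovered from fold and −log10 p by the formulas of MACS (at least 99.97% of peaks matched a whole number within 0.02 in −log10 p). The steps were tested on simulated data. Simulated window counts were drawn independently of each other, so that test does not cover windows that move together, as those of these lists do.

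The text names the 4 autosomes with the highest and the 4 with the lowest ratio of mean shares. Named windows were the 8 per direction with the largest log2 difference at an adjusted p under 0.05, without overlap, with a mean of at least 20 peaks and not adjacent to each other. Named runs were the 3 longest per direction. Named regions were the 8 per direction whose lowest percentile of −log10 p was highest. Chromosomes 4, 6, 14, 15, 16, 17 and 18 were named after their values were seen. The comparison, its members and its measures were chosen with earlier results of these data known. Alternatives were other list lengths, thresholds, rankings, window sizes and overlap rules, and each list left out. No sequence is printed, because no mm9 genome was used here. Software was R 4.3.3 with limma 3.58.1, and Python 3.11.15 with scipy 1.17.1, numpy 2.4.6, matplotlib 3.10.9 and pandas 2.3.3.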

Additional observations from a re-analysis of the deposited data

Results flagged for a closer look

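Of 37 measures checked among the 4 JP lists for a list far from the others, 1 had such a list, and chance gives about 1 in 20. The 3 DB lists are too few for this check. Among the JP lists, the log2 of the autosomal Mb covered was 5.78 in WT replicate 2 and 4.60 to 4.80 in the other 3. In the DB lists the same measure was 4.56, 4.18 and, in WT replicate 1, 6.93.

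The share of size-matched peaks on chromosome 15 moved in opposite directions in the genotypes. DB minus JP was 0.162 percentage points in WT, where the DB list lay above both JP lists, and -0.103 in Q111/+, where both DB lists lay below both JP lists. No other autosome had opposite orders without overlap in both genotypes. Chromosomes 17 and 6 also changed sign, with overlap in Q111/+. On chromosome 17 the difference was larger than on chromosome 15, 0.650 percentage points in WT and -0.149 in Q111/+. On chromosome 6 it was -0.011 and 0.032. The difference between the genotypes was not tested.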

How the results depend on the processing

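By the sample titles the prefixes share 1 replicate number, which cannot be used as a block, but the list names pQ1, pQ2 and Wt2 occur under both. A replicate block by these names, added after seeing the data, called 691 windows higher in DB and 737 higher in JP. Window deviations of same-numbered Q111/+ lists from the mean of their prefix and genotype had a correlation of -0.03. Deviations from the prefix mean alone, which also carry genotype, gave 0.29, 0.11 and 0.49 for the pairs pQ1, pQ2 and Wt2, but list pQ2 of DB correlated more with pQ1 of JP (0.34), and nothing in the labels ties equal numbers together. Leaving out a list makes the smallest exact permutation p 0.0667 or 0.1, so those tests could not pass 0.05. The numbers of autosomes without overlap were within 1.5 times of 4 and 5 under every alternative run. The difference in mean position was 4.35 (exact permutation p = 0.0571) in the full lists, and 4.21 to 4.89 with 1 list left out. The difference in the share of peaks with raised background was 17.4 percentage points (exact permutation p = 0.0286) at a −log10 p of at least 5. The difference in median width, -0.50 bp, ran from -10.0 to 5.50 with 1 list left out, and was 3.00, 5.50 and 4.67 without Q111/+ replicates 1, 2 and 3. That in the log2 number of peaks, 0.28, ran from -0.50, without WT replicate 1, to 0.75, without Q111/+ replicate 2.

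Windows called higher in DB and in JP numbered 18 and 57 of 347 tested with 10000 peaks per list, and 41 and 64 of 997 when the Poisson p of the unscaled fragments had to be 0.001 or lower, where fewer windows had enough peaks to be tested. With 30000 peaks they were 566 and 423 of 2405, so that more windows were then higher in DB than in JP. Windows of 0.5 Mb gave 1240 and 1255 of 4807, and windows of 2 Mb 390 and 479 of 1221. Regions of the DB and JP lists numbered 40 and 46 with 10000 peaks per list, 58 and 76 with 30000, and 45 and 34 with that limit on the unscaled p. DB regions numbered 603 in the full lists and 432 at a −log10 p of at least 5. JP regions numbered 75 without dense windows, 85 with peaks cut to 150 bp at the summit, and 64 when absence was judged in the full lists. With 1 list left out they ran from 192 to 2496 for DB and from 234 to 476 for JP. Where the setting does not itself shorten the lists or relax the rule, the cause was not tested. With a median of 4 or 5 fragments per peak and depth unknown, the absence of a peak from a list does not show absence of binding.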
